A study of Mus musculus with 12 samples.

Results

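Mbp, Pmp22, Sox10, S100b, Cdh19, Ncam1 and Ngfr are genes known from Schwann cells and peripheral nerve, and their RNA was measured in inguinal white adipose tissue (iWAT) of AAV-GFP and AAV-Notum mice. They were taken by gene symbol from the table of raw counts, where each symbol had 1 identifier, and they are 7 of the 54134 genes listed. All 7 were among the 15585 genes that had enough reads for testing. The 12 male C57BL/6J mice received 1e+12 genome copies of AAV8 at 8 weeks of age, carrying either GFP (6 mice) or Notum (6 mice) behind the thyroxine binding globulin promoter, which acts in the liver. Both groups then ate chow for 4 weeks and were fasted for 4 hours before tissue was taken at 12 weeks of age. Each library came from 1 mouse, and the promoter was chosen for expression in the liver, so the comparison asks how iWAT differed when Notum, a secreted enzyme that inactivates Wnt proteins, was overexpressed at a distance.

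Libraries held 15266635 to 21618860 reads on genes in AAV-GFP mice and 14711113 to 17838229 in AAV-Notum mice. Notum itself was at 0.0595 to 0.995 CPM (counts scaled to the normalized library) in iWAT of AAV-GFP mice and at 0.457 to 29.3 CPM in AAV-Notum mice, and whether these reads came from the virus or from the gene of the mouse was not tested. Adipocyte markers were abundant in every mouse, and Fabp4, a fatty acid carrier, averaged 18289 CPM. Several libraries stood apart. AAV-GFP mice S_2011 and S_2014 had 18.5 and 10.8 CPM in the sum of 15 B and T cell markers, against 327 to 2437 CPM in the other 10 mice. AAV-Notum mouse S_2042 had 4998 CPM in the sum of 15 skeletal muscle markers, against 12.3 to 1064 CPM in the other 11. RNA of AAV-GFP mouse S_2012 was isolated on a later date than that of the rest, and the RNA integrity number was lowest in AAV-GFP mouse S_2011 (5.7, against 6.6 to 7.6 in the others).

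Schwann cells are the glia of peripheral nerves. Myelinating Schwann cells wrap single large axons in compact myelin, and Remak Schwann cells hold bundles of thin axons, among them the sympathetic fibres that reach adipose tissue. Their identity depends on the transcription factor Sox10, which acts on the genes of myelin, and after nerve injury they give up myelin and take up a repair state in which Ngfr returns. Several of the genes are also made by other cells of a fat pad: S100b by adipocytes, Pmp22 by fibroblasts, Ncam1 by muscle, and Ngfr by stromal cells of lymph nodes and by fibroblasts.

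Because the levels of Pmp22 and S100b went together from mouse to mouse while that of Ngfr ran the other way, the upstream sequences of these genes are shown side by side. RefSeq promoter entries were found for 3 of the 7 genes, with 4 start sites for Pmp22, 1 for S100b and 1 for Ngfr. The 250 bases before the start are given from 5′ to 3′ on the strand of the gene (GRCm38.p6), for S100b at chr10:76253586-76253835 (plus), Pmp22 start 1 at chr11:63128732-63128981 (plus), Pmp22 start 2 at chr11:63131207-63131456 (plus) and Ngfr at chr11:95587699-95587948 (minus). Capitals mark the letters CCAAT, which read ATTGG on the opposite strand, and the letters GGGCGG, which read CCGCCC on the opposite strand. Neighbouring GGGCGG matches may overlap.
S100b: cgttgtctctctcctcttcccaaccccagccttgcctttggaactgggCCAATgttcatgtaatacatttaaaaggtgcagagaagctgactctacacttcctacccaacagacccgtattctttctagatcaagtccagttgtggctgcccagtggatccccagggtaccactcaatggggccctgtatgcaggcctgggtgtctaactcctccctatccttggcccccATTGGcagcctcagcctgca
Pmp22 start 1: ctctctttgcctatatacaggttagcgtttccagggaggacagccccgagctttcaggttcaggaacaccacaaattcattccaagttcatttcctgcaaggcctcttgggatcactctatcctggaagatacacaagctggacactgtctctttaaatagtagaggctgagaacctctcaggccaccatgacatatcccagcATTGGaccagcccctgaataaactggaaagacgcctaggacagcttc
Pmp22 start 2: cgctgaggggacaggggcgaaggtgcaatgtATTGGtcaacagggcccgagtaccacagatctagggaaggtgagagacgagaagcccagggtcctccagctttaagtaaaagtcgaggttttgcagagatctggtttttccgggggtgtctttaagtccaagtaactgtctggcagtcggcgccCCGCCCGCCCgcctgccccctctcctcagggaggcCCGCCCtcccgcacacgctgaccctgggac
Ngfr: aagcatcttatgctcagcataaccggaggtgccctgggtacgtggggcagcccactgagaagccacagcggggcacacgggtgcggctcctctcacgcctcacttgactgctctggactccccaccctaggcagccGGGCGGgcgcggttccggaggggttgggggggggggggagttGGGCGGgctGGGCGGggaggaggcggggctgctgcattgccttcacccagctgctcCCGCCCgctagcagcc

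S100b held CCAAT 202 and 20 bases before its start, Pmp22 start 1 held it 47 bases before and Pmp22 start 2 held it 219 bases before. Ngfr held no CCAAT in this window but had 4 GGGCGG matches, and Pmp22 start 2 had 3. Of the Pmp22 starts not printed, start 3 held neither pattern, and start 4 held no CCAAT and 3 GGGCGG matches. Both patterns are common: of 32536 such windows across RefSeq mouse starts, 33.8% held CCAAT and 33.0% held GGGCGG. The letters ACAAAG, to which SOX proteins are known to bind, and their variant ACAATG were in none of the 6 windows of these 3 genes on either strand, and 25.0% of all windows held at least 1 of them. The match to these letters is a description of the windows only.

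The levels of the 7 genes are compared with each other per kilobase of exon. In AAV-GFP mice Pmp22, a tetraspan protein of compact myelin, had 61.8 ± 20.5 CPM per kb (SD, n = 6). Mbp, the protein that binds the cytoplasmic faces of the myelin membrane together, had 12.8 ± 2.70 CPM per kb, and S100b, a calcium-binding protein of glia, had 4.91 ± 2.48 CPM per kb. The other 4 genes were lower, with Cdh19 at 1.98 ± 0.613, Ngfr at 1.18 ± 0.714, Sox10 at 1.01 ± 0.355 and Ncam1 at 0.273 ± 0.0618 CPM per kb (SD, n = 6 each). The means of Ngfr and Sox10 lay within 1 SD of each other, and that of Cdh19 lay just over 1 SD of Ngfr above Ngfr. In AAV-Notum mice the order was the same except that Ngfr (1.64 ± 0.405 CPM per kb) stood above Cdh19 (1.44 ± 0.899 CPM per kb), within 1 SD.

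Comparing 6 AAV-Notum with 6 AAV-GFP mice, 0 of the 7 genes passed edgeR's quasi-likelihood test at an adjusted p under 0.05, where 0.0513% of all 15585 genes did (8 genes, all lower in AAV-Notum mice). DESeq2 also called 0 of the 7, with 2.85% of all genes called, and limma-voom 0 of the 7, with 0.0385% of all genes. At an unadjusted p under 0.05 edgeR gave 0 of the 7, with 14.2% of all genes, and the exact permutation test gave 0 of the 7, with 13.2% of all genes. The groups overlapped for all 7 genes, and for 1.09% of all genes they did not. The fitted log2 fold change was below 0 for 6 genes and above 0 for Ngfr, with 48.8% of all genes below 0. In these bulk libraries fewer cells of a type and less RNA per cell cannot be told apart.

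**Figure D1:**
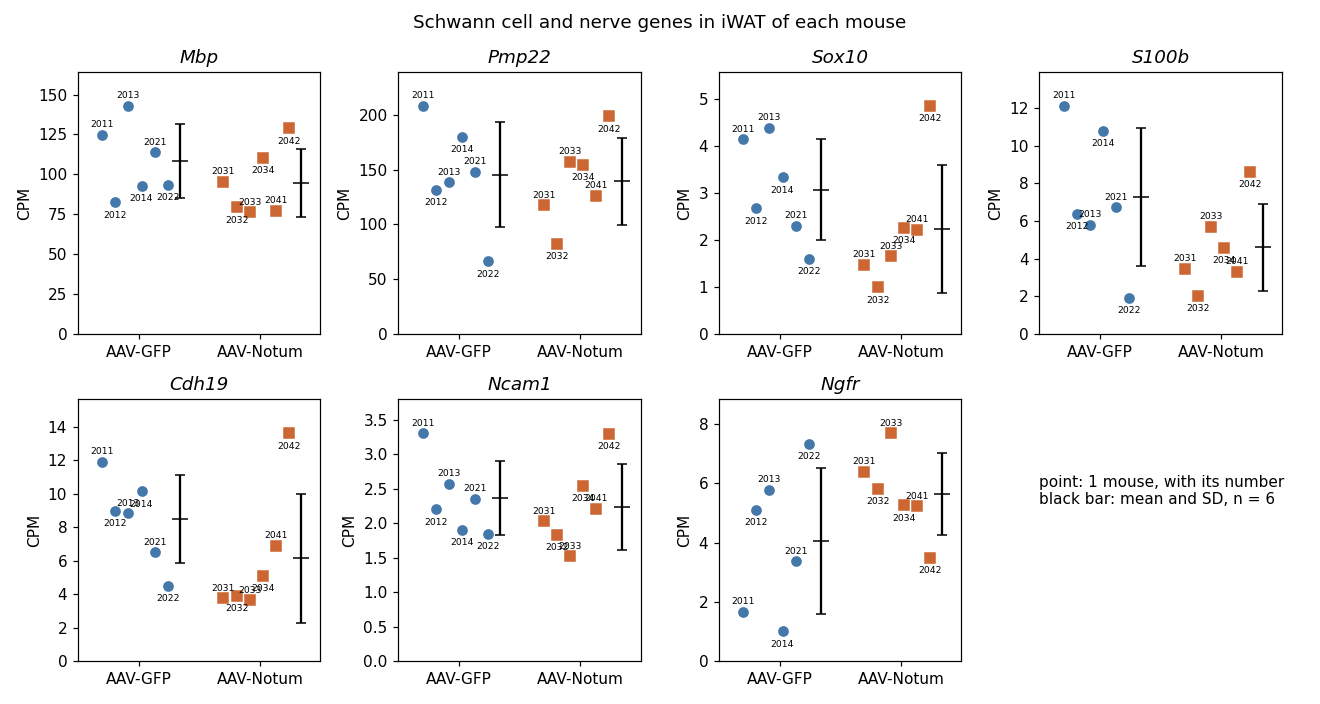
Level of each of the 7 genes in CPM (vertical axis, from 0) in each of the 12 mice, marked with the number from its label, with AAV-GFP mice as circles and AAV-Notum mice as squares. Black bars give the mean and SD of 6 mice. The groups overlap in all 7 panels, and mouse S_2042 is the highest AAV-Notum mouse for 6 of the genes and the lowest for Ngfr.

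Sox10 and Cdh19 mark the Schwann cell itself. Sox10 (ENSMUSG00000033006, chromosome 15 of GRCm38, 79154908 to 79165240, minus strand) rested on 19 to 75 reads per mouse. In AAV-GFP mice it ranged from 1.60 to 4.39 CPM with a median of 3.01, and in AAV-Notum mice from 0.995 to 4.86 CPM with a median of 1.94. The groups overlapped, with 5 of 6 AAV-Notum mice below the AAV-GFP mean and mouse S_2042 above every AAV-GFP mouse. The mean was 3.08 ± 1.08 CPM in AAV-GFP and 2.24 ± 1.37 CPM in AAV-Notum mice (SD, n = 6 each). Its fitted log2 fold change was -0.46 (95% interval -1.26 to 0.34, standard error (SE) 0.37, edgeR adjusted p = 0.516), and the exact permutation p was 0.182.

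Cdh19 (ENSMUSG00000047216, chromosome 1, 110888326 to 110977584, minus strand) is a cadherin of Schwann cells and their precursors. It ranged from 4.50 to 11.9 CPM with a median of 8.91 in AAV-GFP mice, and from 3.65 to 13.6 CPM with a median of 4.51 in AAV-Notum mice, on 55 to 212 reads. Here too 5 of 6 AAV-Notum mice lay below the AAV-GFP mean, 3 of them below every AAV-GFP mouse, and mouse S_2042 lay above all of the others. The means were 8.47 ± 2.63 and 6.15 ± 3.85 CPM (SD, n = 6 each). This gave a log2 fold change of -0.46 (95% interval -1.22 to 0.30, SE 0.35, edgeR adjusted p = 0.499), with an exact permutation p of 0.145.

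Without AAV-Notum mouse S_2042, the mouse with the highest muscle markers, Sox10 averaged 1.72 ± 0.531 CPM and Cdh19 4.66 ± 1.37 CPM in the 5 remaining AAV-Notum mice, all 5 of which lay below the AAV-GFP mean for both genes. The log2 fold change was then -0.84 for Sox10 (edgeR adjusted p = 0.182, exact permutation p = 0.0303) and -0.86 for Cdh19 (edgeR adjusted p = 0.152, exact permutation p = 0.0216). Leaving out this library thus moved both values by over 1.5 times. Both genes then had an unadjusted p under 0.05 in edgeR's test, as did 20.2% of all genes in that fit, but neither passed the adjusted threshold. This mouse stood out in its group by its high Sox10 and Cdh19 themselves. The smaller p-values without it are in part a result of that choice and do not test the genes anew. With all 12 mice and the level of the muscle markers in the fit, the log2 fold changes were -0.46 and -0.45, so they moved little with that term. Other settings brought both nearer to 0. With the lymphoid markers in the fit they were -0.19 for Sox10 and -0.05 for Cdh19, with RNA integrity in the fit -0.16 and -0.21, and without AAV-GFP mice S_2011 and S_2014 -0.30 and -0.24. Melanocytes and some epithelia can also carry Sox10, and their part in its level was not tested. Their markers summed to 14.9 to 36.7 CPM in AAV-GFP and 14.0 to 26.0 CPM in AAV-Notum mice for 6 melanocyte genes led by Mitf, and at 6.28 to 20.1 and 7.80 to 11.9 CPM for 7 epithelial genes led by Trp63.

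Mbp and Pmp22 are known as genes of compact myelin. Mbp (ENSMUSG00000041607, chromosome 18, 82475146 to 82585637, plus strand) had 1151 to 2469 reads. It ranged from 82.5 to 143 CPM with a median of 104 in AAV-GFP mice and from 76.3 to 129 CPM with a median of 87.4 in AAV-Notum mice. The groups overlapped, although 3 AAV-Notum mice lay below every AAV-GFP mouse. The means were 108 ± 22.9 and 94.6 ± 21.4 CPM (SD, n = 6 each). The log2 fold change was -0.20 (95% interval -0.56 to 0.17, SE 0.17, edgeR adjusted p = 0.537), with an exact permutation p of 0.271. It was -0.31 without AAV-Notum mouse S_2042 and -0.10 without AAV-GFP mouse S_2013, and -0.08 with RNA integrity in the fit. The count of Mbp pools its myelin transcripts with the golli transcripts of the same gene, which are also made outside nerve.

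Pmp22 (ENSMUSG00000018217, chromosome 11, 63128982 to 63159547, plus strand) had 1077 to 3711 reads. It ranged from 66.3 to 208 CPM with a median of 143 in AAV-GFP mice and from 82.4 to 199 CPM with a median of 140 in AAV-Notum mice. Both the lowest and the highest mouse, S_2022 and S_2011, were AAV-GFP mice, and the AAV-Notum mice lay between them. The means were 145 ± 48.1 and 139 ± 39.9 CPM (SD, n = 6 each), a log2 fold change of -0.06 (95% interval -0.62 to 0.50, SE 0.26, edgeR adjusted p = 0.909, exact permutation p = 0.913). The sign was not stable: without AAV-GFP mice S_2011 and S_2014 it was 0.20. Of 10 fibroblast markers, led by Col3a1, 9 had a fold change below 0 and 6 an unadjusted p under 0.05, with none at an adjusted p under 0.05 in edgeR's test (smallest 0.157). They summed to 5581 to 9828 CPM in AAV-GFP and 4648 to 6064 CPM in AAV-Notum mice, and their part in Pmp22 was not tested.

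S100b (ENSMUSG00000033208, chromosome 10, 76253853 to 76261159, plus strand) had 31 to 216 reads. It ranged from 1.91 to 12.1 CPM with a median of 6.55 in AAV-GFP mice and from 2.04 to 8.61 CPM with a median of 4.02 in AAV-Notum mice. The 2 highest mice were AAV-GFP S_2011 and S_2014, the mice low in lymphoid markers, and the lowest was AAV-GFP S_2022. The means were 7.28 ± 3.68 and 4.62 ± 2.31 CPM (SD, n = 6 each), and 5 of 6 AAV-Notum mice lay below the AAV-GFP mean. The log2 fold change was -0.66 (95% interval -1.57 to 0.25, SE 0.42, edgeR adjusted p = 0.454), with an exact permutation p of 0.242. It was -0.19 without AAV-GFP mice S_2011 and S_2014, 0.01 with the level of the lymphoid markers in the fit and -0.25 with RNA integrity in the fit. It was -0.86 without AAV-GFP mouse S_2022 (unadjusted p = 0.0296, edgeR adjusted p = 0.177) and -0.93 without AAV-Notum mouse S_2042 (unadjusted p = 0.0451, edgeR adjusted p = 0.240). In these fits 24% and 20.2% of all genes had an unadjusted p under 0.05. Mouse S_2022 was the lowest AAV-GFP mouse for S100b and S_2042 the highest AAV-Notum mouse, so the smaller p-values are in part a result of that choice.

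Ngfr (ENSMUSG00000000120, chromosome 11, 95568818 to 95587735, minus strand) encodes the p75 receptor for neurotrophins, and was the only gene of the 7 with a fitted fold change above 0. It had 17 to 126 reads and ranged from 1.01 to 7.33 CPM with a median of 4.24 in AAV-GFP mice, and from 3.50 to 7.69 CPM with a median of 5.54 in AAV-Notum mice. Of the AAV-GFP mice, 3 lay below every AAV-Notum mouse, and 2 of these were mice S_2011 and S_2014, at 1.68 and 1.01 CPM. The means were 4.05 ± 2.46 and 5.65 ± 1.39 CPM (SD, n = 6 each). Fitted as log2, the difference was 0.48 (95% interval -0.40 to 1.36, SE 0.41, edgeR adjusted p = 0.534), with an exact permutation p of 0.171. Without mice S_2011 and S_2014 it was 0.07, with the lymphoid markers in the fit -0.12 and with RNA integrity in the fit 0.27. The sum of 7 genes listed for lymph node stroma, which carries Ngfr, ran from 645 to 1283 CPM in AAV-GFP mice and from 821 to 1332 CPM in AAV-Notum mice, with Enpp2 (492 CPM on average, log2 fold change -0.15) drawing the most reads. The other 6 markers had fold changes above 0, and the list median was 0.62. Cr2, a complement receptor of follicular dendritic cells and B cells, ran from 0.179 to 118 CPM in AAV-GFP mice, and the mean log2 CPM of the 7 markers was 2.26 in mouse S_2011 and 2.01 in mouse S_2014, against 4.54 to 5.90 in the other 10 mice. Because B cells carry Cr2 too, the list does not separate stroma from B cells. The part of these cells in the level of Ngfr was not tested.

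Ncam1 (ENSMUSG00000039542, chromosome 9, 49502136 to 49798925, minus strand) is a cell adhesion molecule of Remak Schwann cells and axons. It had only 23 to 59 reads, and 4.81% of its exonic bases overlap Gm11149 on the other strand, whose reads cannot be told apart if the counting ignored strand. It ranged from 1.85 to 3.31 CPM with a median of 2.28 in AAV-GFP mice and from 1.52 to 3.30 CPM with a median of 2.12 in AAV-Notum mice. The ranges were nearly the same, with means of 2.37 ± 0.536 and 2.24 ± 0.623 CPM (SD, n = 6 each). The fitted log2 difference was -0.08 (95% interval -0.54 to 0.38, SE 0.21, edgeR adjusted p = 0.849, exact permutation p = 0.645), and its sign turned without AAV-GFP mouse S_2011 (0.04) or AAV-Notum mouse S_2033 (0.01). Natural killer cells, in which this gene is a marker in humans, had 8 markers summing to 8.16 to 53.3 CPM in AAV-GFP and 25.1 to 55.0 CPM in AAV-Notum mice, led by Klrk1, and their part in Ncam1 was not tested. Muscle makes Ncam1 as well. The mice with the highest Ncam1, S_2011 and S_2042, had 730 and 4998 CPM in the sum of skeletal muscle markers. Mouse S_2033 had 704 CPM in this sum and the lowest Ncam1. The part of muscle in Ncam1 was not tested.

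**Figure D2:**
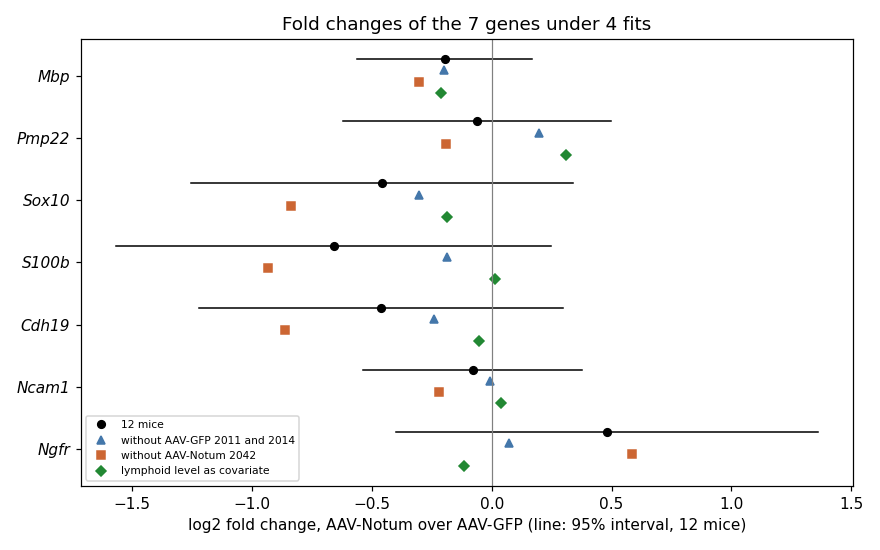
Log2 fold change of each of the 7 genes, AAV-Notum against AAV-GFP (horizontal axis), in 4 fits: all 12 mice (circles, with the 95% interval as a line), without AAV-GFP mice S_2011 and S_2014 (triangles), without AAV-Notum mouse S_2042 (squares) and with the lymphoid markers as a covariate (diamonds). Every interval includes 0. Pmp22 lies above 0 in the fits without mice S_2011 and S_2014 and with the lymphoid markers, and Ngfr lies near 0 in both.

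The 7 genes differed in how widely they varied between mice. The highest of the 12 mice was 1.87 times the lowest for Mbp, 2.17 for Ncam1, 3.14 for Pmp22, 3.73 for Cdh19, 4.88 for Sox10, 6.34 for S100b and 7.59 for Ngfr. After subtracting each group's mean of log2 CPM, all 21 pairs of genes were compared over the 12 mice with a permutation test of 100000 resamples. Among the genes other than Ngfr every r was above 0, the lowest being 0.408 for Mbp and S100b. Ngfr had an r below 0 with each of the others. For 13 pairs the adjusted p of Pearson's r was under 0.05, 10 with a positive and 3 with a negative r, and each of these had an r of at least 0.613 in size. Such values were common in these libraries: 32.9% of all pairs of tested genes reached 0.613 in size, 2.42% reached the 0.908 of Sox10 and Cdh19, and 0.0226% reached the 0.987 of Pmp22 and S100b. Fewer pairs passed by rank. The adjusted p of Spearman's rho was under 0.05 only for Pmp22 with Sox10 and S100b, and for Cdh19 with Sox10, Ncam1 and Ngfr. Some values of r also rested on few mice: that of Mbp and Sox10 was 0.685, and 0.372 without mice S_2013 and S_2042.

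Pmp22 and S100b were the closest pair, with r = 0.987 (permutation p = 5e-05, adjusted p = 0.00105) and Spearman's rho = 0.979 (permutation p = 6e-05, adjusted p = 0.00126). Without mice S_2022 and S_2032, the 2 farthest from the median, r was 0.968, and it was 0.993 within AAV-GFP mice and 0.977 within AAV-Notum mice. Sox10 and Cdh19 had r = 0.908 (permutation p = 0.000400, adjusted p = 0.00420) and rho = 0.811 (permutation p = 0.00262, adjusted p = 0.0275). Without mice S_2032 and S_2042 their r was 0.863, and within the groups it was 0.891 and 0.917.

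Ngfr ran against S100b, Pmp22 and Cdh19. Its r was -0.706 with S100b (permutation p = 0.0158, adjusted p = 0.0302), with rho = -0.636 (permutation p = 0.0270, adjusted p = 0.0568) and r = -0.710 without mice S_2022 and S_2032, the 2 farthest from the median of S100b. With Pmp22 it was -0.674 (permutation p = 0.0226, adjusted p = 0.0365), with rho = -0.664 (permutation p = 0.0236, adjusted p = 0.0551) and r = -0.709 without the same 2 mice. With Cdh19 it was -0.613 (permutation p = 0.00831, adjusted p = 0.0185), with rho = -0.706 (permutation p = 0.00669, adjusted p = 0.0360) and r = -0.500 without mice S_2022 and S_2042. Within AAV-GFP mice r was -0.822 with S100b, -0.782 with Pmp22 and -0.671 with Cdh19, and within AAV-Notum mice it was -0.436, -0.437 and -0.938. Without AAV-GFP mice S_2011 and S_2014 the 3 values were -0.621, -0.613 and -0.645. Mice S_2022 and S_2032 had the lowest S100b and the lowest Pmp22, and the sum of 10 adipocyte markers was 37457 and 33998 CPM in them, 34832 CPM in mouse S_2031, and 58222 CPM in mouse S_2011, which had the highest level of both genes. The order was not the same throughout: mouse S_2012 had 65345 CPM of adipocyte markers, the second highest, with the 8th highest Pmp22 and the 5th highest S100b, and mouse S_2031 had the 10th highest Pmp22 and the 9th highest S100b. Over all mice this sum ran from 37457 to 65345 CPM in AAV-GFP and from 33998 to 77306 CPM in AAV-Notum mice. The part of adipocytes in the pairing of Pmp22 with S100b was not tested.

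**Figure D3:**
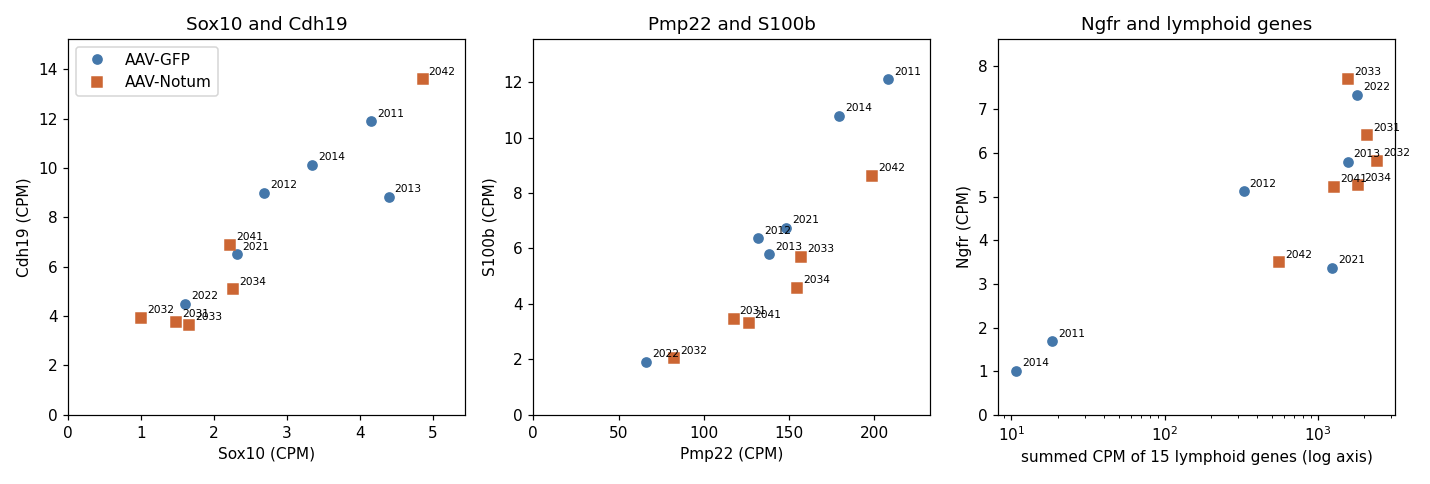
Levels in CPM in each of the 12 mice, AAV-GFP as circles and AAV-Notum as squares with the number from the label: Cdh19 against Sox10, S100b against Pmp22, and Ngfr against the summed CPM of 15 lymphoid markers on a log axis. Sox10 goes with Cdh19 (r = 0.908 after subtracting group means) and Pmp22 with S100b (r = 0.987), and the 2 mice with 18.5 and 10.8 CPM of lymphoid markers have the lowest Ngfr, at 1.68 and 1.01 CPM.

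The genes most like each of the 7 were listed by the same measure, over 12 mice and as a description. For Sox10 they were B230206H07Rik (r = 0.955), Gjc3 (0.951), Cadm4 (0.947), Prx (0.945) and Sbspon (0.942). Gjc3 is a connexin of myelinating glia, Cadm4 an adhesion molecule of the Schwann cell surface facing the axon, and Prx (periaxin) a scaffold of the myelin sheath. Without AAV-GFP mice S_2011 and S_2014, 3 of these 5 (B230206H07Rik, Gjc3 and Prx) were still among the 5 closest.

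S100b was followed most closely by Pmp22, Endog (0.967), Alad (0.960), Dusp23 (0.958) and Abhd11 (0.957), of which Pmp22, Endog and Alad were also among the 5 without mice S_2011 and S_2014. Pmp22 was followed by S100b, Lamtor4 (0.950), Mrpl40 (0.949), Jkamp (0.948) and Park7 (0.945), of which 2 were shared. Endog is a nuclease and Mrpl40 a ribosomal protein of mitochondria. For Cdh19 the closest were Fign (0.964) and Gabarapl2 (0.961), for Mbp Sptbn5 (0.919) and Sf3b6 (0.905), for Ncam1 Gm43136 (0.879) and for Ngfr Snph (0.985), and each of these was also among the 5 closest without mice S_2011 and S_2014. Among the 5 for Ngfr were the immunoglobulin segments Ighv1-18 (0.960) and Ighv5-4 (0.951), neither of which was among the 5 without those mice.

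The wider set of nerve genes was read from 6 lists with 110 genes, of which 71 had enough reads for testing. In edgeR's test 0 of the 71 had an adjusted p under 0.05 and 11 (15.5%) had an unadjusted p under 0.05, where 14.2% of all genes did. Of the 11, 10 were lower (14.1% of the 71, against 9.54% of all genes) and 1 was higher (against 4.64% of all genes). The fitted fold change was below 0 for 51 and above 0 for 20, and the median log2 fold change was -0.34, against 0.01 over all genes tested. Lists of other cells in the same fit also had medians below 0: -0.44 for 10 fibroblast markers (9 below 0), -0.34 for 8 endothelial markers (7 below 0), -0.24 for 9 mural markers (6 below 0), -0.24 for 10 adipocyte markers (7 below 0) and -2.80 for 9 hepatocyte markers (all below 0). Others had medians above 0: 0.99 for 15 lymphoid markers, 1.38 for 11 skeletal muscle markers and 0.61 for 8 natural killer cell markers, with every marker of these lists above 0. Without AAV-Notum mouse S_2042, the nerve genes with an unadjusted p under 0.05 rose from 11 to 26, and the share over all genes from 14.2% to 20.2%. Genes were filtered anew in that fit, so the 26 are not given as a share of the 71. DESeq2 called 6 of the 71, all lower in AAV-Notum mice: Btc, Dhh, Erbb2, Jun, Nes and Ret. Of all genes, DESeq2 called 2.32% lower. Limma-voom called 0 of the 71.

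Of 15 tested genes of Schwann cell identity and Remak cells (20 listed, Foxd3 without a read in any mouse), 12 had a fold change below 0 and 3 above, with a median log2 fold change of -0.34. Only Ednrb, the endothelin receptor of neural crest derivatives, had an unadjusted p under 0.05. It had 24.6 ± 4.21 CPM in AAV-GFP and 16.9 ± 3.82 CPM in AAV-Notum mice (SD, n = 6 each), with a log2 fold change of -0.54 (edgeR adjusted p = 0.197, exact permutation p = 0.0108). Art3 and Scn7a, the latter a sodium channel of Remak cells, drew the most reads of the list, not scaled by length, at 317 ± 88.8 and 235 ± 74.2 CPM in AAV-GFP mice and 225 ± 80.1 and 168 ± 49.0 CPM in AAV-Notum mice (SD, n = 6 each). Their log2 fold changes were both -0.49, and that of Cnp, an enzyme of uncompacted myelin, was 0.59. Matn2 and Kcna1 had -0.64 and -0.68.

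Of 14 tested genes of the myelin sheath (19 listed), 12 had a fold change below 0 and 2 above, with a median of -0.66. Dhh, the signal from Schwann cells that organises the perineurium, had 2.88 ± 0.621 CPM in AAV-GFP and 1.45 ± 0.578 CPM in AAV-Notum mice (SD, n = 6 each), a log2 fold change of -0.99 (SE 0.26, edgeR adjusted p = 0.152, exact permutation p = 0.00433). DESeq2 gave Dhh an adjusted p of 0.0148. Ncmap had a log2 fold change of -0.80 (edgeR adjusted p = 0.305), Prx -0.63 and Mpp6 0.26. Gjb1 had -2.47 (edgeR adjusted p = 0.373), but this connexin is also a gene of hepatocytes, and its highest level, 31.4 CPM, was in AAV-GFP mouse S_2013, where 9 hepatocyte markers summed to 5643 CPM. The part of hepatocyte RNA in Gjb1 was not tested.

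Of 9 tested genes of the nerve sheath (10 listed), 6 had a fold change below 0 and 3 above, with a median of -0.16 and none with an unadjusted p under 0.05. Slc2a1, the glucose transporter of the perineurium, had a log2 fold change of 0.06, Itgb4 -0.34, Ntn4 -0.20, Wif1 0.89 and Etv1 -0.35. Of 23 axonal genes 7 had enough reads for testing, and Scn10a, a sodium channel of sensory neurons, had no read in any mouse. The cell bodies of these neurons lie in ganglia outside the fat pad. Among them 4 were below 0 and 3 above. Syp, the synaptic vesicle protein synaptophysin, had 25.1 ± 13.1 and 13.1 ± 2.12 CPM (SD, n = 6 each), a log2 fold change of -0.93 (edgeR adjusted p = 0.230, exact permutation p = 0.0671). The highest mouse was AAV-GFP S_2011, at 41.7 CPM. Stmn2, Nefh and Tubb3 had log2 fold changes of 0.58, 0.54 and 0.73.

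Of 19 tested neurotrophic ligands, receptors and partners (26 in the table), 12 had a fold change below 0 and 7 above, with a median of -0.12. Ret, the signalling receptor for the GDNF family, had 14.5 ± 6.11 CPM in AAV-GFP and 6.88 ± 0.619 CPM in AAV-Notum mice (SD, n = 6 each). On the log2 scale it differed by -1.08 (SE 0.26, edgeR adjusted p = 0.140, exact permutation p = 0.00866), and DESeq2 gave an adjusted p of 0.0100. Erbb2, the partner of Erbb3 in the neuregulin receptor of Schwann cells, had 11.6 ± 3.18 and 7.32 ± 0.869 CPM (SD, n = 6 each), with no overlap between the groups. On the log2 scale it differed by -0.66 (edgeR adjusted p = 0.152, exact permutation p = 0.00216, the smallest that 6 mice against 6 allow), and DESeq2 gave an adjusted p of 0.0276. Sorcs2, a sortilin family receptor that pairs with Ngfr, had 7.20 ± 4.47 and 19.3 ± 9.37 CPM (SD, n = 6 each), a log2 fold change of 1.42 (edgeR adjusted p = 0.221, exact permutation p = 0.0152). Its highest AAV-GFP level, 14.2 CPM, was in mouse S_2022, which had the most lymphoid marker reads of that group (1795 CPM). The part of lymphoid cells in Sorcs2 was not tested. Ntrk2, the receptor for BDNF, had a log2 fold change of -0.59 (edgeR adjusted p = 0.335, exact permutation p = 0.102), Sort1 -0.32 and Maged1 -0.30.

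Of 7 tested genes of the repair Schwann cell (14 listed), 5 had a fold change below 0 and 2 above, with a median of -0.81. The others of the list, Shh, Olig1, Artn, Gdnf, Gfap, Sox2 and Ucn2, had too few reads for testing. The median thus leaves them out and includes Jun and Nes, which other cells also make. Btc, an EGF family ligand, had 23.6 ± 12.1 CPM in AAV-GFP and 6.49 ± 1.43 CPM in AAV-Notum mice (SD, n = 6 each), and the groups did not overlap, with 9.42 CPM the lowest in AAV-GFP and 8.23 CPM the highest in AAV-Notum mice. On the log2 scale it differed by -1.86 (SE 0.35, edgeR adjusted p = 0.0906, exact permutation p = 0.00216), and DESeq2 gave an adjusted p of 5.0e-05. Jun, the transcription factor of the repair state, which many cell types also induce on handling, had 52.0 ± 16.7 and 28.3 ± 4.14 CPM (SD, n = 6 each), a log2 fold change of -0.88 (edgeR adjusted p = 0.121, 0.00456 from DESeq2). Nes, an intermediate filament also of endothelium and mural cells, had -0.81 (edgeR adjusted p = 0.176, 0.0380 from DESeq2), Mcam -0.46 and Runx1 0.42. Endothelial markers (8 of 8 tested) summed to 695 to 1150 CPM in AAV-GFP and 641 to 882 CPM in AAV-Notum mice, and mural markers (9 of 9) to 549 to 820 and 551 to 746 CPM. Their part in these genes was not tested.

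**Figure D4:**
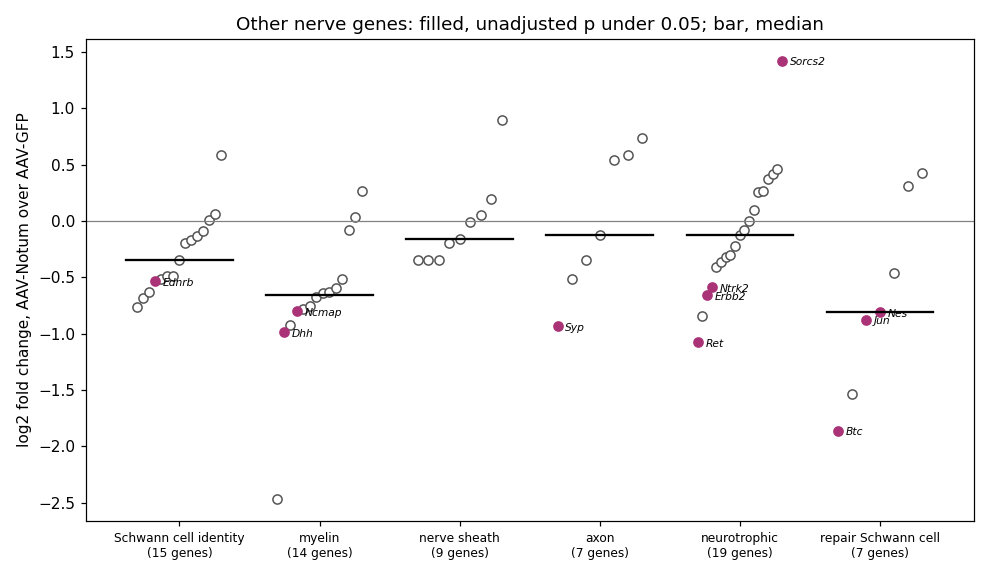
Log2 fold change, AAV-Notum against AAV-GFP (vertical axis), of each tested gene of the 6 nerve gene lists, with 1 point per gene, filled where the unadjusted p was under 0.05, and a bar at the median of each list. The list medians lie between -0.81 (repair Schwann cell) and -0.12 (axonal and neurotrophic genes), and Btc (-1.86) and Sorcs2 (1.42) are the farthest filled points from 0, while Gjb1 (-2.47) is open.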

How the data were processed

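RNA-seq of iWAT from 12 mice was used, and the titles of the samples gave the group. Libraries of the authors (TruSeq, single-end, HiSeq4000) had been aligned by them to mm10 with STAR 2.3.1 and tested with DESeq2. The counting program and annotation are not given in the sources used here. The raw counts, as deposited, are whole reads per gene, and a second deposited table holds the authors' normalized log2 values, used only as an alternative.

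Counts were fitted in R 4.3.3 with edgeR 4.0.16 (TMM, filterByExpr with a minimum count of 10 and total of 15, quasi-likelihood test, two-sided, Benjamini-Hochberg adjustment over 15585 genes, threshold 0.05). The design has no covariate. CPM are on the TMM library size, with a prior count of 2 for log2 CPM. Exact permutation tests were two-sided over 924 assignments of mice. Gene positions and exon lengths are from GENCODE vM21. DESeq2 1.42.0 (also without independent filtering) was tried instead of edgeR, as were limma-voom (limma 3.58.1), RLE factors, other filters, a robust fit, covariates, the normalized table, and mice left out. The 7 genes, the marker lists and the choice of mice S_2011 and S_2014 were made with earlier results of these data known. From each nerve list the 3 genes with the highest mean CPM (not scaled by length) and the 3 with the smallest p are named, except 1 gene that is not reported here. Cr2, Cidea, Cd163 and Mrc1 were named after their values were seen. Figures were drawn with matplotlib 3.10.9.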

Additional observations from a re-analysis of the deposited data

Results flagged for a closer look

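In groups of 6, the highest or lowest mouse was compared with the others by the gap to its nearest neighbour over the group's range, against Dixon's 95% critical value. Of 26 groups tested 3 passed, and chance alone passes about 1 in 20, or 1.3 of 26. All 3 are AAV-Notum mouse S_2042. Sox10 was 4.86 CPM in this mouse and 0.995 to 2.26 CPM in the other 5 AAV-Notum mice (ratio 0.672). Cdh19 was 13.6 CPM in this mouse and 3.65 to 6.89 CPM in the others (ratio 0.674). The mean log2 CPM of the Schwann cell identity list was 3.48 in this mouse and 2.77 to 3.02 in the others (ratio 0.652). The 3 results come from 1 library and are not independent of each other. The same library had 4998 CPM in the skeletal muscle markers, and with the level of these markers in the fit of all 12 mice the log2 fold changes of Sox10 and Cdh19 were -0.46 and -0.45.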

How the results depend on the processing

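No member of the 7 had an adjusted p under 0.05 in any of the 24 alternatives run for each. The log2 fold change ranged over them from -0.31 to -0.08 for Mbp, -0.84 to -0.16 for Sox10, -0.86 to -0.05 for Cdh19, -0.93 to 0.01 for S100b and -0.12 to 0.75 for Ngfr. Leaving out 1 mouse moved Sox10 to -0.31 (without AAV-Notum mouse S_2032) and Ngfr to 0.28 (without AAV-GFP mouse S_2014) or 0.73 (without AAV-GFP mouse S_2022). Pmp22 turned to 0.20 with RNA integrity in the fit, 0.31 with the lymphoid markers and 0.20 without AAV-GFP mice S_2011 and S_2014. With the lymphoid markers, S100b was 0.0126, Ncam1 0.0380 and Ngfr -0.12, and with the RNA integrity number Ncam1 was 0.0865. With 1 mouse left out, Pmp22 ranged from -0.21 to 0.0693 (above 0 without AAV-GFP mouse S_2011 or S_2014 or AAV-Notum mouse S_2032) and Ncam1 from -0.22 to 0.0409 (above 0 without AAV-GFP mouse S_2011 or AAV-Notum mouse S_2033). The cause was not tested.

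The 8 genes called in all became 451 with DESeq2, 280 without its independent filtering, 14 with RLE factors, 5 with at least 1 count in all mice, 15 with at least 10 in every mouse, 4 with the lymphoid and 57 with the muscle markers as a covariate, 4 in the normalized table, 1 without AAV-GFP mice S_2011 and S_2014, and 1 to 158 with 1 mouse left out (158 without AAV-GFP mouse S_2022, 18 without AAV-GFP mouse S_2013). Among the 71 nerve list genes, DESeq2 called 6, and 4 without independent filtering (Btc, Dhh, Jun and Ret), against 0 from edgeR, and leaving out 1 mouse gave 0 to 2 (Btc and Ret without AAV-GFP mouse S_2022). Those with an unadjusted p under 0.05 numbered 11, and 9 to 26 with 1 mouse left out (19 without AAV-GFP mouse S_2013, 21 without AAV-GFP mouse S_2022, 26 without AAV-Notum mouse S_2042). The share of all genes rose as well, from 14.2% to 17.5%, 24% and 20.2% without these mice in turn. Of the 7 genes, 0 to 3 had an unadjusted p under 0.05 with 1 mouse left out (S100b without AAV-GFP mouse S_2022, and Sox10, Cdh19 and S100b without AAV-Notum mouse S_2042).

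No paired analysis was possible because the mouse numbers are not shared between the groups. Sox10, Ncam1, Ngfr and S100b had as few as 17 to 31 reads in a mouse, and how far depth limits their differences was not tested.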

Other observations

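Markers of other cell types in the same libraries give the setting of the nerve genes. Of 15 lymphoid markers, led by Cd22, all 15 had a fold change above 0, a median of 0.99 on the log2 scale and none with an unadjusted p under 0.05. Their summed level ran from 10.8 to 1795 CPM in AAV-GFP and from 556 to 2437 CPM in AAV-Notum mice.

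Of 11 tested markers of thermogenic adipocytes, led by Adrb3, 8 had a fold change above 0 and 1, Cidea (log2 fold change 1.09), an unadjusted p under 0.05, and the list median was 0.46. They summed to 728 to 1881 CPM in AAV-GFP and 672 to 1289 CPM in AAV-Notum mice, and most of this sum was Adrb3 (863 CPM on average), whose log2 fold change was -0.51. Of 8 macrophage markers, led by Lyz2, 4 were above 0 and 4 below, and 2 had an unadjusted p under 0.05, both lower: Cd163 (log2 fold change -0.94, edgeR adjusted p = 0.0696, groups not overlapping) and Mrc1 (-0.40, edgeR adjusted p = 0.312). They summed to 385 to 1278 and 767 to 1448 CPM in AAV-GFP and AAV-Notum mice. The 9 hepatocyte markers in the table, led by Alb, were all below 0, 2 of them with an unadjusted p under 0.05, with sums of 47.0 to 5643 and 22.0 to 815 CPM.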
